A study of Mus musculus with 20 samples.

Results

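Collagens, the triple-helical proteins of the extracellular matrix, were followed through the differentiation of 3T3-L1 cells, a mouse fibroblast line that can become adipocytes in culture. Chains were taken as genes whose symbol has the form of Col, a type number, the letter a and a chain number, whose mean normalised count reached 10 in at least 1 of the 5 deposited tables, which hold a day each. Of 43 such symbols, 31 passed and form the set described here, among 16497 genes tested and 33581 listed. They comprised 9 fibrillar chains, 7 basement membrane chains and 15 chains of other types. At their highest table, the members just inside the minimum were Col22a1 at 14.3, Col4a6 at 15.0 and Col4a3 at 16.6 normalised counts, while the chains just outside were Col2a1 at 6.95 and Col6a5 at 5.90. The mean runs over both hairpins, and 27 of the 31 chains passed in all 5 tables.

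A collagen molecule is a trimer, and some types need more than 1 gene product in a fixed stoichiometry. Fibrillar collagens such as types I, III and V assemble into the fibres that give connective tissue its tensile strength, and type IV forms the network of the basement membrane, the thin sheet that surrounds mature adipocytes. Type VI makes beaded microfilaments and is abundant in adipose tissue. When fibroblast-like precursors become adipocytes in culture, they are known to pass from a fibrillar to a basement membrane matrix.

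The knockdown cells stably carried a lentiviral SMARTvector hairpin against Tcf7l2, which encodes a DNA-binding partner of beta-catenin in the Wnt pathway, and the control cells carried a scrambled hairpin. Both populations were made from low-passage 3T3-L1 cells, were selected with puromycin as mixed populations rather than clones, and were differentiated by a published procedure that did not routinely include a thiazolidinedione. Libraries came from days 0, 2, 4, 6 and 8, 2 for each hairpin at each day, so that 20 libraries fall into 10 groups. Whether libraries of the same group were separate cultures is not stated in the labels, so p-values measure the spread between these libraries, which may be technical. The libraries come from 1 hairpin against Tcf7l2, so an effect of losing Tcf7l2 and an effect of that hairpin's sequence cannot be told apart.

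Libraries held 20153362 to 33973608 reads, and levels are given as RPM (reads scaled to a library total of 1e6). Tcf7l2 was at 12.2 to 23.4 RPM in the 10 knockdown libraries, against 38.5 to 59.0 RPM in the 10 scrambled libraries, and its average log2 difference was -1.36 (SE 0.0866, limma adjusted p = 2.61e-08). Fibroblast and preadipocyte genes were present in all 20 libraries, with Pdgfra at 287 RPM or more and Vim at 1523 RPM or more. All 10 adipocyte markers listed were lower on average in knockdown cells, and their sum at day 8 was 2496 to 4025 RPM in knockdown libraries, against 6353 to 28001 RPM in scrambled libraries. Summed endothelial, macrophage and epithelial markers stayed at or under 1.28, 1.94 and 1.77 RPM in every library, and Emr1 and Epcam had 0 reads throughout (3 reads, the limit that a count of 0 allows, are 0.0883 to 0.149 RPM; this covers counting error only). Scrambled libraries numbered 2 of days 4, 6 and 8 stood apart from their partners numbered 1, with adipocyte marker sums of 13602, 26467 and 28001 RPM, against 4282, 11881 and 6353 RPM. In these bulk libraries, fewer cells of a type and less RNA per cell cannot be told apart.

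The 31 chains together took up a large part of the RNA, and the fibrillar chains a larger part of it in knockdown cells from day 2 onward. Collagen reads were 3.56% and 4.98% of all reads in the 2 knockdown libraries at day 0, against 3.34% and 6.05% in the scrambled libraries. At day 4 they were 6.83% and 6.76% in knockdown libraries, against 6.24% and 4.78% in scrambled libraries. Fibrillar chains alone were 3.76% and 4.02% of reads in knockdown libraries at day 4, against 2.87% and 2.03% in scrambled libraries. At day 8 the fibrillar share was 3.78% and 3.94% in knockdown libraries and 3.19% and 2.44% in scrambled libraries. The groups overlapped in fibrillar share at day 0 and were apart at each of the 4 later days. The basement membrane share went the other way late in the course, at 0.656% and 0.695% in knockdown libraries at day 8 and 0.774% and 0.804% in scrambled libraries.

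**Figure D1:**
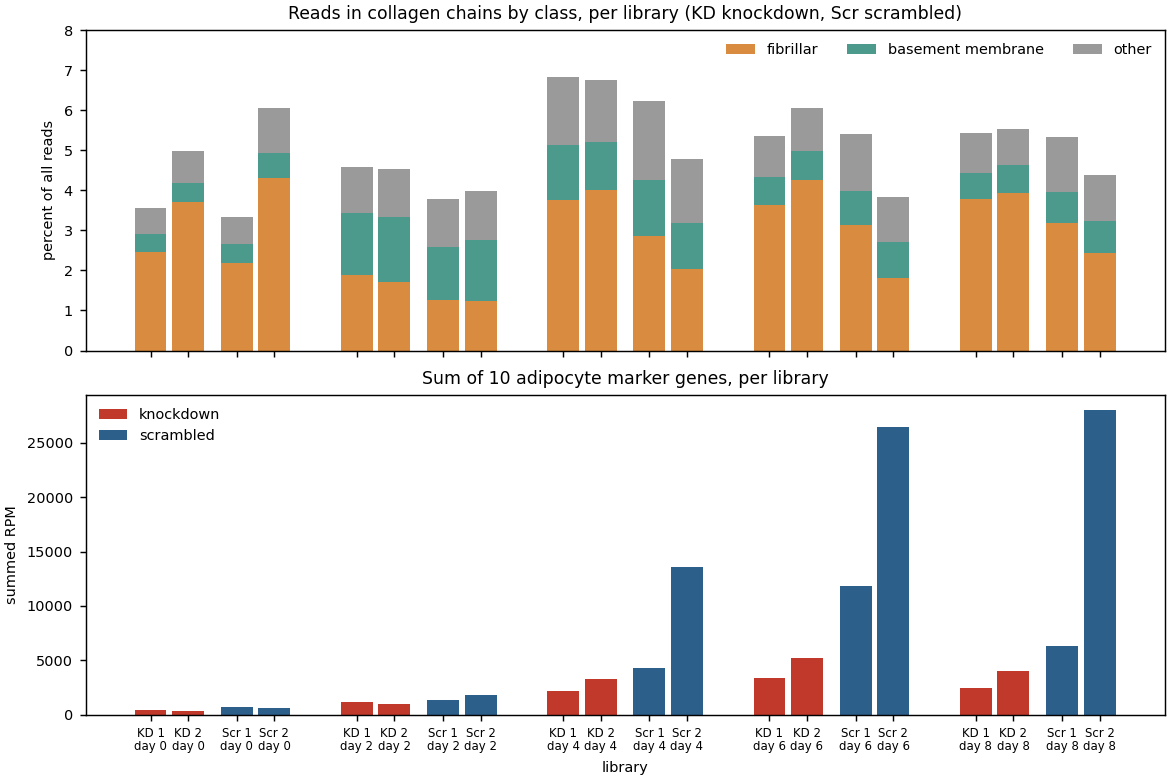
Percent of all reads in fibrillar, basement membrane and other collagen chains (upper panel, stacked) and the summed RPM of 10 adipocyte marker genes (lower panel), with 1 bar per library and knockdown (KD) left of scrambled (Scr) within each day. Scrambled library 2 has the lowest fibrillar share of its day at days 4, 6 and 8 (2.03%, 1.80% and 2.44%) and the highest adipocyte marker sum.

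Per base of exon, the most abundant chains were those of types I, III, VI and IV. Averaged over the 20 libraries, RPM per kilobase of merged exon (RPKM) were 908 for Col1a1, 890 for Col3a1, 849 for Col1a2, 784 for Col6a1, 727 for Col4a1, 506 for Col4a2, 414 for Col6a3 and 341 for Col6a2. Col5a1 at 191 RPKM and Col5a2 at 159 RPKM followed, and then a gap to Col18a1 at 55.1 RPKM and Col4a5 at 49.3 RPKM. The lowest chain, Col4a3, averaged 0.0283 RPKM. The steps between the first 3 chains were small beside the spread over libraries, since Col1a1 alone ran between 1660 and 10540 RPM. The order also rests on the merged exon lengths: 6563 bases for Col1a1, 12426 for Col1a2, 4380 for Col6a1 and 8326 for Col6a2. Before division by length, Col1a2 averaged 10551 RPM and Col1a1 5959 RPM.

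Averaged over the 5 days, 9 of the 31 chains differed between knockdown and scrambled cells, 7 higher and 2 lower, while 25.4% of all genes tested were called (12.3% higher and 13.2% lower). The higher chains were the fibrillar Col1a1, Col1a2, Col5a2 and Col11a1, the basement membrane chain Col4a5, and Col8a1 and Col14a1, and the lower chains were Col15a1 and Col6a3. Of 9 fibrillar chains 4 rose and 0 fell, with a median log2 difference of 0.35, against a median of -0.0028 over all genes tested. The sum of 4 myofibroblast markers was higher in knockdown libraries at days 6 and 8, but most of it came from a single marker. At day 6 the sum was 378 to 602 RPM in knockdown libraries, against 144 to 292 RPM in scrambled libraries. The highest marker held 332 to 537 RPM and 121 to 252 RPM of these sums. At day 8 the sum was 368 to 497 RPM in knockdown libraries, against 139 to 188 RPM in scrambled libraries. At day 0 the groups overlapped (159 to 296 RPM in knockdown libraries and 237 to 254 RPM in scrambled libraries). Of 3 such markers tested, Acta2 (0.75, adjusted p = 0.0148) and Myl9 (0.47, 0.0296) rose on average and Tagln was at 0.28 (0.129). Without the scrambled libraries numbered 2 of days 4, 6 and 8, with or without their knockdown partners, 0 of the 3 were called. Among libraries numbered 1 alone or numbered 2 alone, 0 were called as well. Their median was 0.36 to 0.50 over these runs, against 0.47 in all 20 libraries. Of 9 fibroblast or preadipocyte markers 5 rose and 1 fell (median 0.28). Ly6a (1.15), Thy1 (0.62) and Vim (0.43) were among those that rose. The 1 that fell was Pdgfra (-0.48, limma adjusted p = 0.0212), and Dlk1 (0.03) was not called. Without the 6 libraries numbered 2 of days 4, 6 and 8, and among libraries numbered 1 alone, 2 rose and 2 fell. The part of these markers in the fibrillar result was not tested. Of 7 basement membrane chains 1 rose and 1 fell (median -0.05), and of 15 other chains 2 rose and 1 fell (median 0.05). With the replicate number as a block, Col3a1, Col5a1 and Col9a3 also rose and Col18a1 also fell, and the 9 calls without it held, while the share of all genes called went up to 35.9%. The 10 libraries per arm enter the average fit as if independent, yet all 5 days may come from 1 selected population. Without the 6 libraries numbered 2 of days 4, 6 and 8, and among libraries numbered 2 alone, calls were left for Col15a1 and Col4a5 and for no other chain, where 16.9% and 4.38% of all genes were called.

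**Figure D2:**
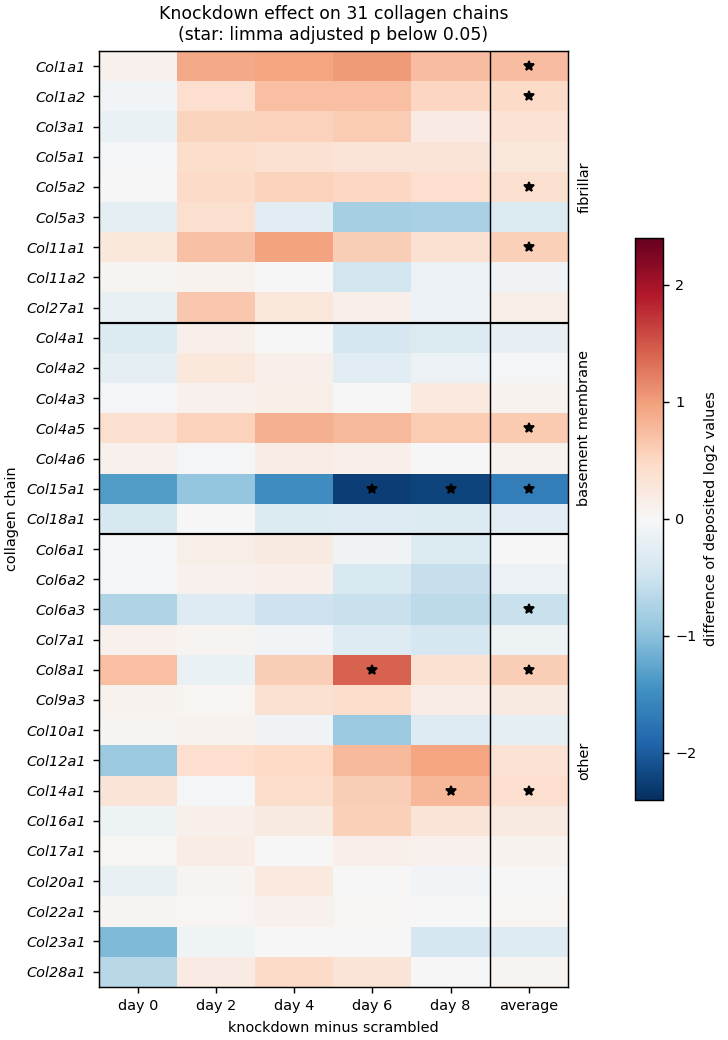
Difference of the deposited log2 values, knockdown minus scrambled, of 31 collagen chains (rows, by class) at each day and on average (columns), where red is higher in knockdown cells, blue is lower, and a star marks a limma adjusted p below 0.05. The fibrillar rows Col1a1 to Col5a2 and Col11a1 are red from day 2, and Col15a1 is blue at every day, reaching -2.26 at day 6.

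At single days few chains passed. No chain passed at day 0, day 2 or day 4, where 0.224%, 0.267% and 1.61% of all genes were called by limma; at an unadjusted p under 0.05 there were 2, 2 and 6 chains, and limma voom on recovered counts also called 0 at each of these days. At day 6, with 4.12% of all genes called, Col15a1 was lower and Col8a1 was higher, and at day 8, with 5.75% called, Col15a1 was lower and Col14a1 was higher. With the replicate block there was 1 lower chain at day 0 (Col23a1, adjusted p = 0.0369), 1 higher chain at day 4 (Col4a5, 0.0333), 8 chains at day 6 (5 higher, 3 lower) and 6 chains at day 8 (2 higher, 4 lower). The block also called more of all genes on these 4 days: 0.8%, 3.1%, 18% and 17.1%. The chains the block added at day 6 were Col1a1 (0.0488), Col5a2 (0.0482), Col4a5 (0.0224) and Col14a1 (0.0402), higher, and Col6a3 (0.0415) and Col10a1 (0.0219), lower. Col10a1 reached the minimum for testing in the day 6 table alone, through its scrambled libraries, so its call at that day is no independent result. At day 8 it added Col4a5 (0.0395), higher, and Col6a2 (0.0377), Col6a3 (0.0277) and Col7a1 (0.0393), lower. More chains passed at day 6 or at day 8 without scrambled library 1 of that day, with a single scrambled library left there. The share of all genes called in those runs is not given, so the rise cannot be read as particular to collagens. Both knockdown libraries lay above both scrambled libraries in 2, 12, 13, 11 and 9 of the 31 chains at days 0, 2, 4, 6 and 8, against 16.8%, 21.9%, 20.4%, 27.4% and 22.4% of all genes. They lay below both in 5, 2, 3, 8 and 9 chains, against 16.4%, 22.5%, 21%, 26.8% and 23.1% of all genes. Among the 9 fibrillar chains the number above was 0, 7, 6, 6 and 6.

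The products of Col1a1 and Col1a2 form type I collagen, the main fibre of skin, bone and tendon. At day 0, Col1a1 was at 4855 and 9684 RPM in knockdown cells, against 3936 and 9990 RPM in scrambled cells. At day 2 it was at 3579 and 3032 RPM in knockdown cells, against 1866 and 1660 RPM in scrambled cells. At day 6 it was at 7410 and 9754 RPM in knockdown cells, against 5634 and 2973 RPM in scrambled cells. The groups overlapped at day 0, where libraries of both arms were far apart, and did not overlap at days 2, 4, 6 and 8. The average log2 difference of Col1a1 was 0.74 (SE 0.184, adjusted p = 0.0082), with the knockdown library higher in 9 of 10 pairs of the same day and number. Col1a2 at day 4 was at 13597 and 13152 RPM in knockdown cells, against 10621 and 6112 RPM in scrambled cells. Col1a2 lay apart on the same 4 days, and its average difference was 0.46 (SE 0.157, adjusted p = 0.0389). That call was near the threshold: it ended without any 1 of 12 libraries in turn (adjusted p 0.0586 to 0.0761), with quantile normalization (0.103), and with no filter on low genes (0.0512).

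Type III collagen, made of the Col3a1 product alone, joins type I in pliable tissues. At day 2, Col3a1 was at 5731 and 6186 RPM in knockdown cells, against 3754 and 4610 RPM in scrambled cells. At day 8 it was at 11457 and 12825 RPM in knockdown cells, against 11017 and 9364 RPM in scrambled cells. Both knockdown libraries were above both scrambled libraries at days 2 to 8, but the average difference of 0.35 (SE 0.155) did not pass (adjusted p = 0.107). It passed with the replicate block (adjusted p = 0.0426), and also without scrambled library 2 (0.0047) or knockdown library 1 (0.0338) of day 0.

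Types V and XI are minor fibrillar collagens that start fibrils and limit their width. Col5a2 at day 4 was at 1673 and 1636 RPM in knockdown cells, against 1320 and 966 RPM in scrambled cells. Col5a1 at day 4 was at 2414 and 2083 RPM in knockdown cells, against 2019 and 1481 RPM in scrambled cells. Both were apart at days 2, 4, 6 and 8, and Col5a2 rose on average by 0.38 (SE 0.0909, adjusted p = 0.0065). Col5a1 had an average difference of 0.27 (SE 0.101, adjusted p = 0.0585, and 0.0225 with the replicate block). Col11a1 at day 4 was at 182 and 173 RPM in knockdown cells, against 103 and 77.2 RPM in scrambled cells. It was higher in 10 of 10 pairs, with an average difference of 0.57 (SE 0.159, adjusted p = 0.0158).

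The other 3 fibrillar chains were not called on average. Col5a3, a further chain of type V, was at 150 and 185 RPM in knockdown cells at day 8, against 200 and 388 RPM in scrambled cells. Its knockdown libraries lay below both scrambled libraries at days 0 and 8 and overlapped them at the other days, and its average difference was -0.34 (adjusted p = 0.264). Col11a2 at day 8 was at 13.1 and 10.8 RPM in knockdown cells and 15.6 and 10.5 RPM in scrambled cells, with an average difference of -0.08. Col27a1 was at 88.0 and 66.1 RPM in knockdown cells at day 2, against 58.3 and 37.0 RPM in scrambled cells, apart at that day alone, and its average difference was 0.14 (adjusted p = 0.553). Across days 4, 6 and 8, scrambled library 2 had lower Col1a1, Col1a2, Col3a1, Col5a1 and Col5a2, and higher Col5a3, than scrambled library 1. The 3 scrambled libraries numbered 2 of days 4, 6 and 8 are those with the highest adipocyte marker sums, and the part of that difference in the fibrillar result was not tested. Without those 3 libraries Col1a1, Col5a2 and Col11a1 were still called and Col1a2 was not (0.23, adjusted p = 0.179). Dropping their 3 knockdown partners as well left 0 fibrillar chains called by limma (3 at an unadjusted p under 0.05).

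**Figure D3:**
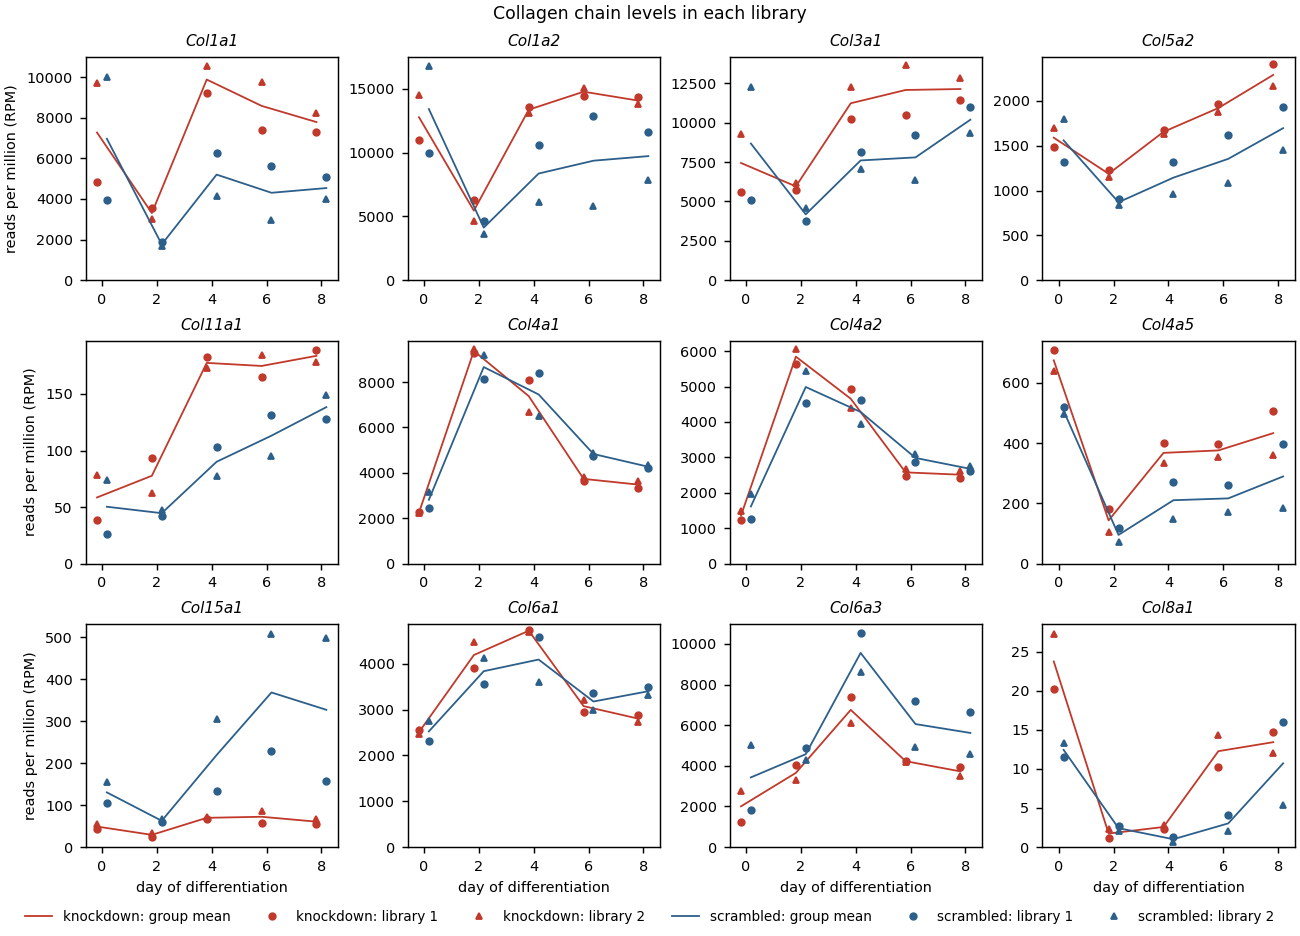
RPM of 12 collagen chains in each library by day of differentiation (circles, library 1; triangles, library 2; lines, group means), with knockdown in red and set slightly left of scrambled in blue. Col1a1 at day 4 is at 9216 and 10540 RPM in knockdown libraries and at 6274 and 4124 RPM in scrambled libraries, while Col4a1 and Col4a2 peak at day 2 in both arms.

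Col4a1 and Col4a2 encode the common chains of type IV collagen, lie head to head on opposite strands and are transcribed away from each other. The promoter windows of both genes are shown because both genes peaked at day 2 in both arms. Windows are from RefSeq on GRCm38.p6 and run from 250 bases before to 50 bases after the start of each gene. The capitals mark the stretch of 78 bases that both windows hold, read on opposite strands. The Col4a1 window is chr8:11312777-11313076 on the minus strand, and the Col4a2 window is chr8:11312555-11312854 on the plus strand.
Col4a1: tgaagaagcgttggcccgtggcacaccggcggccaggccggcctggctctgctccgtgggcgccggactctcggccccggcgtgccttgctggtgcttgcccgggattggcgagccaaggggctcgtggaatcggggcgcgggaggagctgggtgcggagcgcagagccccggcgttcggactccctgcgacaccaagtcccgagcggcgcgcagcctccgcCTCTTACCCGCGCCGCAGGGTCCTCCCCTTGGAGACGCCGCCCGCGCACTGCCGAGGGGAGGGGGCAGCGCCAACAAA
Col4a2: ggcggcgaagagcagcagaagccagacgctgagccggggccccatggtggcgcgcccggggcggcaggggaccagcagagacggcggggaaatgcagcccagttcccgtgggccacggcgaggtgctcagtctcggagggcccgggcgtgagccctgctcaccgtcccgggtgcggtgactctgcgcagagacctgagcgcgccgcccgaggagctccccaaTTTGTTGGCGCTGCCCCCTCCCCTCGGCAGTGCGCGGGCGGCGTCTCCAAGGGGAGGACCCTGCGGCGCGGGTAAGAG

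The common type IV chains rose sharply at day 2 in both arms and differed little between hairpins. Col4a1 at day 0 was at 2261 and 2236 RPM in knockdown cells, against 2453 and 3172 RPM in scrambled cells. At day 2 it was at 9270 and 9467 RPM in knockdown cells, against 8120 and 9198 RPM in scrambled cells. At day 8 it was at 3332 and 3629 RPM in knockdown cells, against 4208 and 4326 RPM in scrambled cells. The knockdown libraries were thus above both scrambled libraries at day 2 and below them at days 0, 6 and 8, and the average difference was -0.19 (SE 0.0885, adjusted p = 0.114). Col4a2 at day 2 was at 5630 and 6060 RPM in knockdown cells, against 4549 and 5427 RPM in scrambled cells, and its average difference was -0.05 (adjusted p = 0.710). The exons of the pair share 22 bases, and the library kit does not mark strand.

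The remaining type IV chains belong to alternative trimers found in kidney, lung and smooth muscle. Col4a5 at day 0 was at 708 and 640 RPM in knockdown cells, against 518 and 495 RPM in scrambled cells. At day 2 it was at 181 and 106 RPM in knockdown cells, against 120 and 70.9 RPM in scrambled cells. At day 6 it was at 396 and 354 RPM in knockdown cells, against 261 and 172 RPM in scrambled cells. It was higher in 10 of 10 pairs, the groups were apart at days 0, 4 and 6, and the average difference was 0.64 (SE 0.145, adjusted p = 0.0050). Of the 7 chains higher on average, it is the only one whose call held in every alternative run. The neighbouring Col4a6 stayed at or under 0.959 RPM and Col4a3 at or under 0.742 RPM in every library, and neither was called in the average effect or at any single day.

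Type XV and type XVIII collagens sit at the basement membrane, carry glycosaminoglycan chains and release C-terminal fragments, of which endostatin from type XVIII is the best known. Col15a1 showed the largest average difference of the deposited log2 values among the 31 chains. At day 0 it was at 43.7 and 54.0 RPM in knockdown cells, against 106 and 154 RPM in scrambled cells. At day 2 it was at 24.4 and 33.8 RPM in knockdown cells, against 58.9 and 66.1 RPM in scrambled cells. At day 4 it was at 66.7 and 72.5 RPM in knockdown cells, against 134 and 304 RPM in scrambled cells. The highest knockdown library was below the lowest scrambled library at each of these days. At day 6 it was at 57.7 and 86.6 RPM in knockdown cells, against 229 and 507 RPM in scrambled cells. At day 8 it was at 54.0 and 66.9 RPM in knockdown cells, against 157 and 497 RPM in scrambled cells. The groups were apart at all 5 days.

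The average log2 difference of Col15a1 was -1.65 (SE 0.244, adjusted p = 0.000152), lower in 10 of 10 pairs, and the call held in every alternative run. At day 6 the difference was -2.26 (SE 0.534, adjusted p = 0.0338) and at day 8 it was -2.22 (SE 0.534, adjusted p = 0.0308). These single-day calls were less firm: without scrambled library 2 of the day they were -1.63 (0.372) at day 6 and -1.33 (0.320) at day 8, and without either knockdown library of the day the adjusted p was 0.109 to 0.246. At day 6 the call also ended without any 1 of 6 libraries of days 2 and 4, at 0.0504 to 0.0519. The scrambled library with the higher adipocyte marker sum also had more Col15a1 at days 2, 4, 6 and 8, and less at day 0. From day 0 to day 2 the sum rose in scrambled libraries and Col15a1 fell. At day 0, before differentiation, the groups were apart in Col15a1 and in the sum. The sum was then 359 to 488 RPM in knockdown libraries and 606 to 692 RPM in scrambled libraries. A single marker held 309 to 418 RPM and 522 to 591 RPM of these sums, so they say little of the other markers. The part of the sum in the Col15a1 difference was not tested at any day.

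The promoter window of Col15a1 is shown because it is the chain with the largest average difference and because Tcf and Lef factors bind a short known motif. The search was for CTTTGAT and CTTTGAA on both strands, and the capitals mark the match, TTCAAAG, read on the window's strand. The window is chr4:47207762-47208061 on the plus strand of GRCm38.p6 from RefSeq.
Col15a1: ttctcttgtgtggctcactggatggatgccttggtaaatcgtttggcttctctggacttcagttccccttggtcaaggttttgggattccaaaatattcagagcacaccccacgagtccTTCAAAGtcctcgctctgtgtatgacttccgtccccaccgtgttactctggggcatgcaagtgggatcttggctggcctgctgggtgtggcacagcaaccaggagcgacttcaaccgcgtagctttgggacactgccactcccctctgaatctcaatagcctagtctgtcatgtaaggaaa

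The motif was present in 2842 of 32851 windows of this length, or 8.65%, and in 2 of 26 windows of collagen chains, or 7.69%; the other was 1 of 2 windows of Col6a2. Windows were given for 24 of the 31 chains. A match to 7 letters is a description of the sequence only.

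Col18a1 was lower in knockdown cells in 9 of 10 pairs, by less. At day 4 it was at 365 and 374 RPM in knockdown cells, against 415 and 524 RPM in scrambled cells. The groups were apart at days 0, 4 and 8, and the average difference was -0.27 (SE 0.101, adjusted p = 0.0557, and 0.0092 with the replicate block). It also passed without any 1 of 5 libraries in turn (adjusted p 0.0206 to 0.0494).

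Type VI collagen is built from the products of Col6a1, Col6a2 and Col6a3 in equal parts, and the C-terminal fragment of the last is known as endotrophin. Col6a3 was lower in knockdown cells, whereas the other 2 chains were not called. At day 4, Col6a3 was at 7379 and 6125 RPM in knockdown cells, against 10518 and 8593 RPM in scrambled cells. At day 8 it was at 3945 and 3502 RPM in knockdown cells, against 6646 and 4588 RPM in scrambled cells. The groups were apart at days 2, 4, 6 and 8, the knockdown library was lower in 10 of 10 pairs, and the average difference was -0.54 (SE 0.167, adjusted p = 0.0271). Col6a1 at day 4 was at 4750 and 4697 RPM in knockdown cells, against 4592 and 3596 RPM in scrambled cells, with an average difference of -0.02 (adjusted p = 0.887). Col6a2 at day 8 was at 1958 and 1971 RPM in knockdown cells, against 2523 and 3088 RPM in scrambled cells. Its average difference was -0.15 (adjusted p = 0.272), and its day 8 difference of -0.56 passed with the replicate block alone (adjusted p = 0.0377).

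Col8a1 and Col14a1, the other called chains of the class of other types, were at low levels. Col8a1, a short chain that forms networks under endothelium and in vessel walls, was at 20.3 and 27.2 RPM in knockdown cells at day 0, against 11.5 and 13.4 RPM in scrambled cells. At day 6 it was at 10.2 and 14.4 RPM in knockdown cells, against 4.04 and 2.02 RPM in scrambled cells. It lay above at days 0, 4 and 6 and overlapped at days 2 and 8, with a day 6 difference of 1.42 (SE 0.303, adjusted p = 0.0215) and an average of 0.59 (SE 0.172, adjusted p = 0.0202). The day 6 call ended without scrambled library 2 (0.242), knockdown library 1 (0.0806) or knockdown library 2 (0.170) of that day, and the average call ended among libraries numbered 1 alone (0.30, adjusted p = 0.316) and without the 3 scrambled libraries named above (0.37, adjusted p = 0.0973). Col14a1, which sits on fibril surfaces, was at 1.82 and 2.48 RPM in knockdown cells at day 8, against 0.697 and 0.4997 RPM in scrambled cells. Its day 8 difference was 0.79 (SE 0.184, adjusted p = 0.0259) and its average was 0.41 (adjusted p = 0.0069). The deposited scale compresses such low genes: on recovered counts the day 8 difference was 1.80, which did not pass (adjusted p = 0.0990), nor did it without 1 of 3 libraries of that day in turn (0.0636 to 0.195).

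The other 10 chains not yet given were not called in any knockdown comparison without the block. Col12a1, a fibril surface chain related to Col14a1, was at 705 and 393 RPM in knockdown cells at day 8, against 479 and 144 RPM in scrambled cells. Its groups overlapped at day 8 and lay far apart within each arm, and its average difference was 0.35 (SE 0.324, adjusted p = 0.452). Col10a1, a network chain of growth plate cartilage, was at 0.0470 and 0.266 RPM in knockdown cells at day 6, against 0.473 and 2.64 RPM in scrambled cells, with the highest value in scrambled library 2. Col16a1, also of the fibril surface, was at 256 RPM in both knockdown libraries at day 6, against 234 and 119 RPM in scrambled cells. Col23a1, a membrane-spanning chain, was at 56.0 and 31.3 RPM in knockdown cells at day 0, against 108 and 76.9 RPM in scrambled cells. Col7a1 of anchoring fibrils, Col9a3, Col17a1 of hemidesmosomes, Col20a1, Col22a1 and Col28a1 had average differences between -0.12 and 0.22, with adjusted p from 0.0610 to 0.970. Of these, Col9a3 passed with the replicate block (0.22, adjusted p = 0.0392).

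The hairpin effect itself was compared between times, to ask whether it grew during differentiation. For the mean of days 4, 6 and 8 minus day 0, and for day 2 minus day 0, limma voom called 0 of 16497 genes (0% for each), with 1149 and 386 genes at an unadjusted p under 0.05 and 1 and 0 of the 31 chains. With the replicate block 0 genes were called as well, and 9 chains late and 7 at day 2 had an unadjusted p under 0.05. Without scrambled library 1 of day 0, 0 chains were called and 12 and 9 had an unadjusted p under 0.05. In the fit without the block, the chain at an unadjusted p under 0.05 was Col28a1, named after its values were seen, at 1.59 (SE 0.671, adjusted p = 0.641). The fibrillar median change was 0.39 late and 0.52 at day 2, against 0.02 over all genes for both. Late and at day 2, it was 0.12 and 0.39 for basement membrane chains and 0.26 and 0.27 for other chains. All 31 chains together had medians of 0.28 and 0.44. Limma on the deposited values also called 0 chains in each. Col1a1 changed by 0.78 late (SE 0.480) and by 0.80 at day 2 (SE 0.568). No difference in the effect between day 0 and later days passed after adjustment, which does not show that the effect was the same.

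Over time, cells of both arms gained Col4a1, Col4a2, Col6a1 and Col6a2 and lost Col1a2 by day 2. In knockdown cells, 9 of 31 chains changed between day 0 and day 2, 4 up and 5 down, against 15.3% of all genes (6.74% up and 8.6% down). Col4a1 rose by 2.196 (SE 0.177, adjusted p = 7.31e-06), Col4a2 rose by 2.25 (SE 0.211), Col6a1 rose by 0.87 and Col6a2 rose by 0.97. Col1a2 fell by 1.09 (SE 0.345, adjusted p = 0.0485), Col4a5 fell by 2.15, Col8a1 fell by 3.69 and Col16a1 fell by 1.47. The last of the 9, Col4a6, was at -2.90, but it reached the minimum for testing in the day 0 table alone, so its difference from day 0 is no independent result in either arm. The Col1a2 call ended in 13 alternatives, 12 of them the loss of 1 library each (adjusted p 0.0615 to 0.275). Col4a6 did not pass without knockdown library 2 of day 0 (0.0691) or library 1 of day 2 (0.109), nor Col16a1 without knockdown library 1 of day 0 (0.0536) or library 2 of day 2 (0.0516). The change of Col1a1 was -0.91 and did not pass in these cells; with the replicate block it did (adjusted p = 0.0362), and the block gave 14 chains in place of 9, with 28.9% of all genes called.

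In scrambled cells, 13 of 31 chains changed between day 0 and day 2, 4 up and 9 down, against 24.6% of all genes (11.2% up and 13.4% down). The 4 that rose were Col4a1 by 1.73 (SE 0.177, adjusted p = 3.58e-05), Col4a2 by 1.76 (SE 0.210), Col6a1 by 0.70 and Col6a2 by 0.81. Among fibrillar chains, Col1a1 fell by 1.72 (SE 0.396, adjusted p = 0.0072), Col1a2 fell by 1.57 and Col5a2 fell by 0.73. The others that fell were Col4a5 (-2.36), Col4a6 (-2.13), Col8a1 (-2.302), Col16a1 (-1.74), Col17a1 (-1.81) and Col20a1 (-1.22). Without scrambled library 2 of day 2, calls were left for Col4a1, Col4a2, Col4a5 and Col16a1, and the other 9 had adjusted p from 0.0527 to 0.238. Without scrambled library 2 of day 0, Col1a1 was at -1.05 (adjusted p = 0.0864), and Col1a2, Col4a6, Col5a2 and Col17a1 also did not pass (0.0649 to 0.183). Col6a1 (0.0531) and Col20a1 (0.152) did not pass without scrambled library 1 of day 0, and Col4a6, Col5a2, Col17a1 and Col20a1 did not pass without scrambled library 1 of day 2 (0.0534 to 0.106). With the replicate block Col3a1 (-0.83, adjusted p = 0.0144), Col6a3 (0.69, 0.0044), Col23a1 (-0.64, 0.0188) and Col27a1 (-0.52, 0.0301) passed as well, with 39.3% of all genes called. As given above, no difference between the arms in these changes passed.

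For the mean of days 4, 6 and 8 against day 0, no type I chain was called and Col4a1 and Col4a2 were higher in both arms. In knockdown cells 5 of the 31 chains differed, against 2.91% of all genes (1.75% up and 1.16% down): Col11a1 was up by 1.74, Col4a1 by 1.07, Col4a2 by 1.25 and Col6a3 by 1.40, and Col8a1 fell by 1.61. In scrambled cells 10 chains differed, against 24.9% of all genes (11.9% up and 13% down). Col11a1 was up by 1.35, Col4a1 by 0.99, Col4a2 by 1.102, Col6a1 by 0.54, Col6a2 by 0.79 and Col6a3 by 1.24, while Col4a5 fell by 1.12, Col8a1 fell by 2.04, Col16a1 fell by 1.18 and Col20a1 fell by 0.95. The replicate block gave 13 chains in knockdown cells and 18 in scrambled cells, where it called 12.1% and 44.2% of all genes. Without knockdown library 1 of day 0, 1 call was left in knockdown cells (Col4a1), with the others at 0.0653 to 0.504, and without knockdown library 2 of day 0 Col8a1 did not pass (0.106). The Col6a3 call in knockdown cells also ended without any 1 of 10 other libraries (0.057 to 0.0868). Without scrambled library 1 of day 0, 3 calls were left in scrambled cells (Col4a1, Col4a2 and Col8a1), with the others at 0.0600 to 0.404. Without scrambled library 2 of day 0, Col4a5 (0.105) and Col20a1 (0.0558) did not pass, and Col20a1 did not pass without library 2 of day 4, 6 or 8 (0.0573 to 0.0638). The changes at day 2 and late share the same day 0 libraries in each arm.

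**Figure D4:**
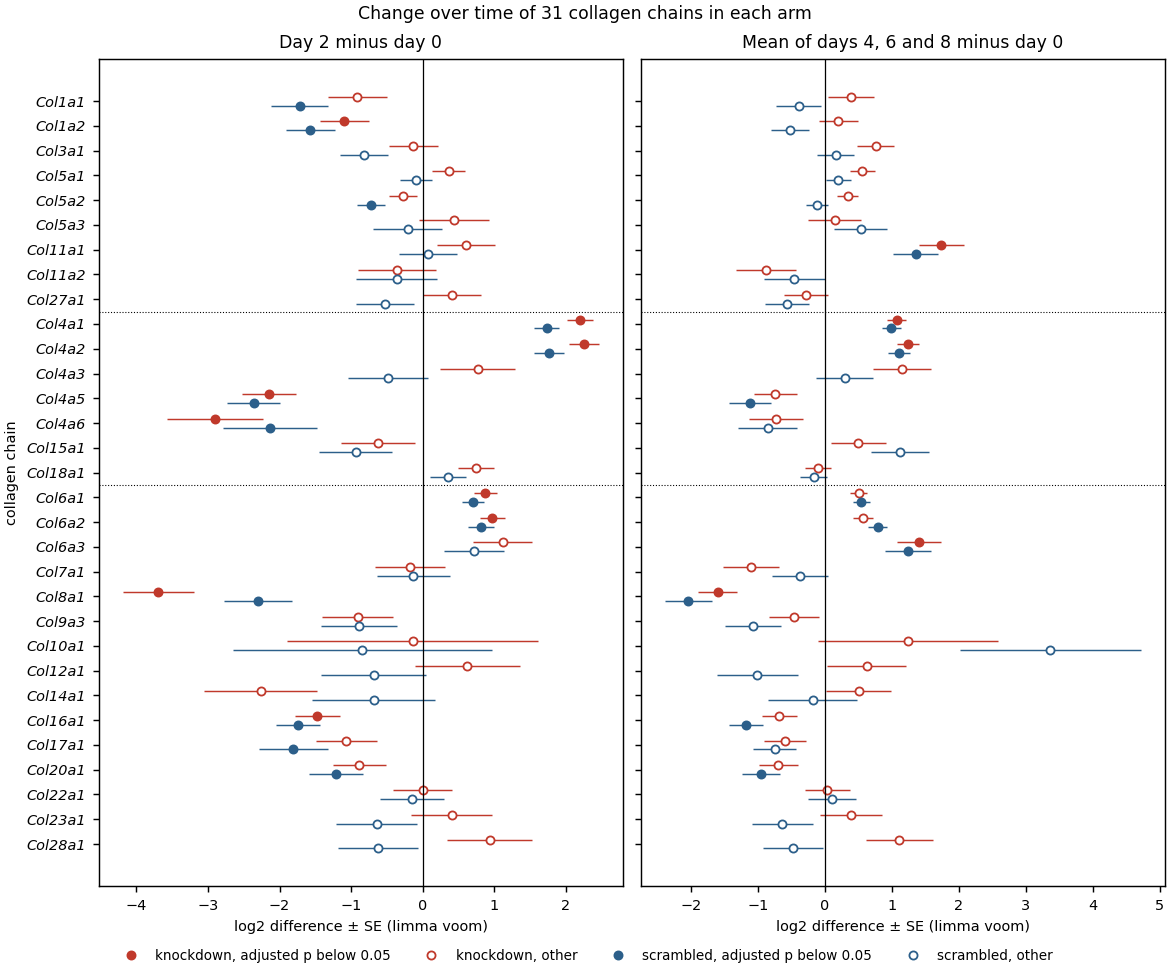
Log2 change ± SE from day 0 to day 2 (left) and from day 0 to the mean of days 4, 6 and 8 (right) for each chain, from limma voom, with knockdown in red above scrambled in blue and filled points for an adjusted p below 0.05. Col4a1 at day 2 stands at 2.196 in knockdown cells and 1.73 in scrambled cells, and Col8a1 at -3.69 in knockdown cells and -2.302 in scrambled cells.

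Within a library, ratios between chains do not depend on library size. Col3a1 over Col1a1 and Col4a5 over Col4a1 set chains of different molecules against each other, and the other ratios chains of 1 molecule. Col4a1 over Col4a2 stayed between 1.38 and 1.95 in all 20 libraries, while the level of each gene moved several-fold. At day 8 the ratio was 1.38 to 1.39 in knockdown libraries, against 1.58 to 1.62 in scrambled libraries, and the groups did not overlap from day 2 onward. Col6a3 over Col6a1 at day 4 was 1.304 to 1.55 in knockdown libraries, against 2.29 to 2.39 in scrambled libraries. It too was lower at days 2, 4, 6 and 8 and overlapped at day 0. Col3a1 over Col1a1 at day 8 was 1.55 to 1.57 in knockdown libraries, against 2.17 to 2.35 in scrambled libraries, and the groups overlapped at day 2 alone. Col1a1 over Col1a2 at day 2 was 0.572 to 0.652 in knockdown libraries, against 0.404 to 0.457 in scrambled libraries, with overlap at days 0 and 8. Col4a5 over Col4a1 was 0.286 to 0.313 in knockdown libraries at day 0, against 0.156 to 0.211 in scrambled libraries, and 0.0112 to 0.0195 in knockdown libraries at day 2, against 0.0077 to 0.0147 in scrambled libraries. With 2 libraries a group an exact test of a single ratio can give no p below 0.333, so these ratios are given without one.

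**Figure D5:**
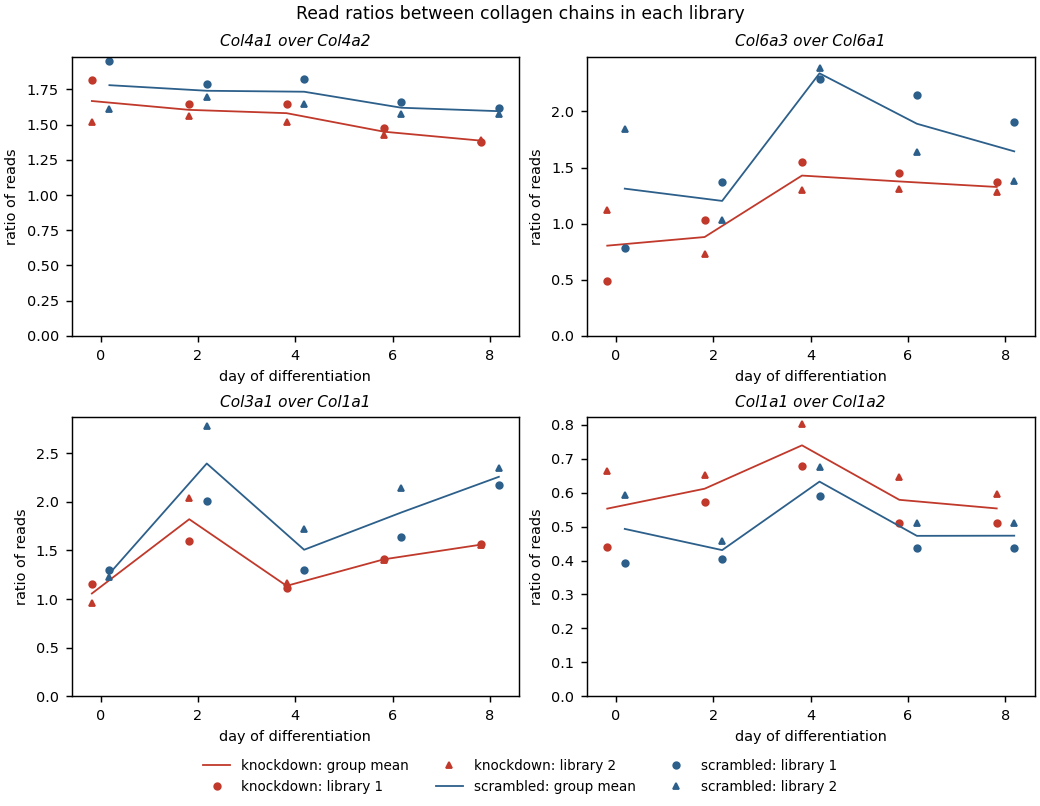
Ratio of reads between 4 pairs of collagen chains in each library by day (circles, library 1; triangles, library 2; lines, group means), with knockdown in red and set slightly left of scrambled in blue. At day 4 Col6a3 over Col6a1 is 1.304 to 1.55 in knockdown libraries and 2.29 to 2.39 in scrambled libraries.

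The authors' deposited table of their own day-wise comparisons called more chains than limma did at days 0, 2 and 4. In the authors' deposited table, Col15a1 was lower past an adjusted p of 0.05 at all 5 days, with log2 fold changes of -1.06, -0.93, -1.2975, -2.00 and -1.96 at days 0, 2, 4, 6 and 8. It was the sole chain lower there, while 0.655%, 2.02%, 0.814%, 3.66% and 2.03% of the genes in the authors' deposited table were lower. The authors' deposited table had 5 chains higher at day 2, where 2.7% of its genes were higher: Col1a1 (0.84, adjusted p = 4.42e-07), Col3a1 (0.47), Col5a2 (0.43), Col11a1 (0.69) and Col27a1 (0.59). In the authors' deposited table the chains higher at day 4 numbered 2 (Col1a1 and Col11a1), 1 at day 6 (Col8a1, 1.68) and 0 at days 0 and 8. A looser and unlike count is that of limma on the log2 values of all 20 libraries. It had 2 and 4 chains at days 0 and 8, in either direction, at an unadjusted p under 0.05. The backgrounds for higher genes in the authors' deposited table were 0.973%, 1.71%, 2.5% and 1.52% at days 0, 4, 6 and 8.

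The machinery that makes, assembles and removes collagen was looked up in 5 lists. Of 93 list genes tested, 24 were higher and 14 lower on average in knockdown cells, beside the 25.4% of all genes called. Among 24 tested genes of synthesis and folding, 5 were higher and 4 lower, with a median of 0.07. Plod2, a lysyl hydroxylase that sets the crosslink sites, rose by 0.42 (SE 0.110, adjusted p = 0.0114). Fkbp14, a prolyl isomerase of the endoplasmic reticulum, fell by 0.50 (adjusted p = 0.000186), Fkbp9, a related protein, fell by 0.28 (0.0016), and Leprel1, a prolyl 3-hydroxylase, fell by 0.26 (0.0258). Among 18 genes of extracellular processing and crosslinking, 5 were higher and 1 lower (median 0.18). Lox, the crosslinking oxidase, rose by 0.58 (adjusted p = 0.0155), Sparc, which binds procollagen, rose by 0.38 (0.0110), and Fn1, the fibronectin on which fibrils start, rose by 0.75 (0.0092). Lum, a proteoglycan of the fibril surface, fell by 0.97 (0.0040). Without the 3 scrambled libraries numbered 2 of days 4, 6 and 8, 3 genes of this list were higher and 3 lower, with a median of -0.0080, and Lox no longer passed (0.36, adjusted p = 0.0693).

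Among 19 degradation genes, 7 were higher and 1 lower (median 0.26). Mmp9, a gelatinase, rose by 1.19 (adjusted p = 0.000151), Ctsl, a lysosomal protease, rose by 0.63 (0.000164), and Timp1, which inhibits matrix metalloproteinases, rose by 0.89 (0.0059). Timp4, another such inhibitor, fell by 1.65 (0.000139). Among 11 collagen receptors, 4 were higher and 1 lower (median 0.33): Itgb1, the shared beta subunit of collagen-binding integrins, rose by 0.46 (5.13e-05), Mrc2, which takes up collagen fragments, rose by 0.55 (0.0019), Gpr126 rose by 0.93 (0.0011), and Gpr56 fell by 0.88 (0.0061). Without the 3 scrambled libraries numbered 2 of days 4, 6 and 8, the degradation median was 0.0936 (6 higher, 1 lower) and the receptor median 0.0918 (3 higher, 1 lower), and among libraries numbered 2 alone limma called 0 receptors and 3 degradation genes. Of 21 basement membrane partners, 3 were higher and 7 lower (median -0.19). Itga3, a laminin receptor subunit, rose by 0.83 (3.48e-05), Lama5, a laminin chain, rose by 0.83 (0.0048), and Agrn, the proteoglycan agrin, rose by 0.59 (0.0235). Lama4, the laminin chain of adipocyte and vessel membranes, fell by 0.37 (0.0052). Agrn did not pass without the 3 scrambled libraries (0.29, adjusted p = 0.100), and neither Lama5 (0.55, 0.146) nor Agrn (0.28, 0.248) passed among libraries numbered 1 alone. Among libraries numbered 2 alone, 9 of the 93 list genes were called, beside 4.38% of all genes. Losing 1 library at a time gave 22 to 38 list genes, and the share of all genes called in those runs is not given. Counts of 22 to 25 came without knockdown library 1 of day 4, 6 or 8, knockdown library 2 of day 6, or scrambled library 2 of day 4 or 6.

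Over time in knockdown cells, 2 of 19 degradation genes rose and 7 fell at day 2, with a median of -1.10 against 0.03 over all genes, of which 15.3% were called. In scrambled cells 0 rose and 12 fell at day 2, with a median of -1.40 against 0.02 over all genes, of which 24.6% were called. Of 21 basement membrane partners, 4 rose and 1 fell at day 2 in knockdown cells (median 0.79), and 6 rose and 1 fell in scrambled cells (median 0.46). For the mean of days 4, 6 and 8 against day 0, 3 partners rose and 0 fell in knockdown cells, with a median of 0.80 against 0.01 over all genes, of which 2.91% were called. In scrambled cells 9 partners rose and 2 fell, with a median of 0.73 against -0.0042 over all genes, of which 24.9% were called.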

How the data were processed

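RNA-seq of 3T3-L1 cells was deposited as 5 tables, 1 per day, with 33581 genes and 4 libraries each. The authors used TopHat2 2.0.13, Bowtie2 2.2.3.0, SAMtools, DESeq2 1.10.1 and mm9, per the submitters' processing notes; the read counter and annotation are not given in the sources used here. Deposited were log2 values per library (variance-stabilised, normalised within a table), the mean signal per gene in normalised counts, and the authors' log2 fold change, its standard error, a test score, a p-value and an adjusted p-value.

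The log2 values the authors deposited were inverted to read counts: 100% of values up to 100 reads came out whole within 0.02 reads. RPM and read ratios use these counts; RPKM uses merged exon lengths of GENCODE on GRCm38. A gene with no read has a value of 5.00 to 6.94 by table, so deposited differences understate low genes.

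Differences between hairpins within a day were tested in R 4.3.3 with limma 3.58.1 (trend, robust; statmod 1.5.0) on the deposited values, with 10 group means (10 residual degrees of freedom), and the average with day as a factor (14). Comparisons between days used limma voom on recovered counts, since tables were normalised separately. P-values were adjusted by Benjamini-Hochberg over the 16497 genes that reached a mean of 10 normalised counts in at least 1 table and called at 0.05. The fits were run on simulated data with independent libraries and changes planted in genes above the median level. Those data held no deviation shared by same-numbered libraries, so they cannot show how the fits behave under it. Same-numbered libraries of a day deviated together (correlations 0.468 to 0.783 over 5 days), which pairs them in the data although the labels do not say what a number marks; the replicate block left 5 residual degrees of freedom.

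The named genes are every chain called in a comparison, 12 chains of types I, III, IV, V, VI, XV and XVIII, up to 4 called genes per list, and Tcf7l2. Members, lists and tests were chosen with earlier results of these data known. Alternatives were other filters, scaling, fits and left-out libraries.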

Additional observations from a re-analysis of the deposited data

How the results depend on the processing

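The counts of chains called moved as follows. With the replicate block days 0, 4, 6 and 8 had 1, 1, 8 and 6 calls, the change over time had 14 (day 2) and 13 (late) in knockdown cells, and the late change had 18 in scrambled cells. A separate fit per day table called 1 at day 2 and 0 at days 6 and 8 (6 and 3 at an unadjusted p under 0.05). Of all genes it called 1.6%, 0.315% and 0% at these days. With both arms' libraries numbered 2 of days 4, 6 and 8 left out, day 0 had 1, day 6 had 1, day 8 had 0 (2 unadjusted) and the average had 2 with 0 fibrillar (3 unadjusted), and late changes were 3 in knockdown cells and 5 in scrambled cells. Of all genes this run called 0.8%, 3.35% and 1.47% at days 0, 6 and 8 and 16.9% on average. For the late changes it called 3.76% in knockdown cells and 11.2% in scrambled cells. Libraries numbered 2 alone gave 2 chains on average, 0 of them fibrillar (5 unadjusted), and 9 list genes. Limma on the deposited values gave 16 at day 2 and 12 late in knockdown cells, and 16 late in scrambled cells. It called 45.4%, 16.4% and 40.9% of all genes there. At day 2 in knockdown cells, 6741 of all genes were called higher and 752 lower, on tables that were normalised separately. Limma voom and a minimum of 50 each gave 1 at day 8, where they called 3.16% and 5.5% of all genes. Leaving out the 3 scrambled libraries numbered 2 of days 4, 6 and 8, chosen after seeing the data, gave 1 at day 0, 1 at day 8 and 8 late in knockdown cells. Of all genes it called 1.59%, 3% and 10.6% there, against 0.224%, 5.75% and 2.91% with all 20 libraries and no block. The cause of these moves was not tested.

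Leaving out 1 library at a time gave 0 to 0 chains at days 0, 2 and 4 and for both changes of effect, 0 to 4 at days 6 and 8, 8 to 11 on average, 3 to 6 fibrillar chains and 22 to 38 list genes. Over time it gave 7 to 11 chains at day 2 and 1 to 7 late in knockdown cells, and 4 to 13 at day 2 and 3 to 15 late in scrambled cells. The share of all genes called in these runs is not given, so the ranges cannot be read as particular to collagens.

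Signs turned for 2 chains near 0 on average: Col4a2 was at 0.0258 among libraries numbered 1 alone and at -0.0952 to 0.0087 with 1 library left out, and Col6a1 was at 0.0019 with quantile normalization and at -0.0564 to 0.0103 with 1 library left out. On the deposited values the day 2 changes turned for Col4a6 (0.48 in knockdown cells, 0.62 in scrambled cells) and Col17a1 (0.21 in scrambled cells); a gene with no read has a value of 5.87 at day 0 and 6.94 at day 2 on that scale. Depth limits Col4a3, Col4a6, Col9a3, Col10a1, Col14a1, Col17a1 and Col22a1, with at most 82 reads in any library.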
